A study of Mus musculus with 6 samples.

Results

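Levels of 9 epithelial junction genes were followed in alveolar type II (AT2) cells, the surfactant-secreting cells of the lung, with and without caBmpr1a, a constitutively active form of the BMP receptor BMPR1A that Cre switches on from the Rosa26 locus. They were picked by gene symbol from the 24421 genes of the count table: 5 claudins named for the alveolus (*Cldn3*, *Cldn4*, *Cldn7*, *Cldn12* and *Cldn18*), occludin (*Ocln*), ZO-1 (*Tjp1*), JAM-A (*F11r*) and E-cadherin (*Cdh1*). All 9 passed the filter on low counts. The RNA came from AT2 cells sorted from adult mouse lungs, poly(A)-selected, with 3 libraries in each of 2 groups. Control mice were Sftpc-CreERT2/+; R26-tdTomato/+, and caBmpr1a mice were Sftpc-CreERT2/+; R26-tdTomato/R26-caBmpr1a, so both groups carried the tamoxifen-dependent Cre at the *Sftpc* locus and the red reporter. Mice of control replicate 2 and caBmpr1a replicate 1 were 16 weeks old, and those of the other 4 libraries were 12 weeks old. Cells were sorted by the reporter, which recombines apart from the caBmpr1a allele, so the sort did not select for the active receptor. The labels do not say that each library is a separate mouse, so every p-value measures the spread between these libraries.

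Tight junctions close the gap between neighbouring epithelial cells near their apical side. Claudins are four-pass membrane proteins that set which ions and solutes pass, occludin and JAM-A are further membrane proteins of the junction, and ZO-1 ties them to the actin cytoskeleton from inside. E-cadherin holds the adherens junction just below. In the alveolus *Cldn3* is known as a claudin of AT2 cells, *Cldn18* is found in both AT1 and AT2 cells, and *Cldn4* is known for its induction in injured lung epithelium.

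Gene positions follow the mm10 coordinates of the count table. *Cldn3* is a gene of 1 exon at chr5:134986214-134987476 on the plus strand, and *Cldn4*, also of 1 exon, lies at chr5:134945124-134946934 on the minus strand. They are neighbours on chromosome 5, with 39279 bases between them. *Cldn12* lies far from this pair on the same chromosome, at chr5:5505015-5514976. *Cldn18* spans chr9:99690797-99717267, *Cldn7* chr11:69964779-69967886, *Ocln* chr13:100497367-100552498, *Tjp1* chr7:65296165-65371244, *F11r* chr1:171437561-171464593 and *Cdh1* chr8:106603368-106670246. Of the exon bases, 44 of *Cldn3* overlap 1 other gene, and reads there were not counted, while the other 8 members overlap no gene.

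Start regions of *Cldn3*, *Cldn4* and, for its downstream start, *Cldn7* are shown because they carry the E-box CAGGTG, the sequence bound by the SNAI and ZEB repressors of epithelial junction genes. Each is the RefSeq sequence of GRCm38.p6 from 250 bases before to 50 bases after a RefSeq transcript start, 5′ to 3′ on the gene's strand, with each match to CAGGTG, or CACCTG on the other strand, in capitals.
*Cldn3*, chr5:134985964-134986263, plus strand: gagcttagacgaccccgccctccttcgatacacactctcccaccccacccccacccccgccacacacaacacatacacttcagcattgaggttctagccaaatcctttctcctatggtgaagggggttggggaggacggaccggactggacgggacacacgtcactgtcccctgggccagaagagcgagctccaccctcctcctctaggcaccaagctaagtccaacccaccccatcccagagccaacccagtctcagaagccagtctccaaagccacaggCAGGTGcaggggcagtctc
*Cldn4*, chr5:134946885-134947184, minus strand: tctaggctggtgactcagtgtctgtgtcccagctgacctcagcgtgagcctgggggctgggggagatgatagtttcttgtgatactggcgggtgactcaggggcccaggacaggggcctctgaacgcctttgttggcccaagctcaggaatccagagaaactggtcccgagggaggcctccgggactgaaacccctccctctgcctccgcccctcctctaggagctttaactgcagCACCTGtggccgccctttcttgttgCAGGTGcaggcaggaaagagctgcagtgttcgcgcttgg
*Cldn7*, chr11:69965171-69965470, plus strand: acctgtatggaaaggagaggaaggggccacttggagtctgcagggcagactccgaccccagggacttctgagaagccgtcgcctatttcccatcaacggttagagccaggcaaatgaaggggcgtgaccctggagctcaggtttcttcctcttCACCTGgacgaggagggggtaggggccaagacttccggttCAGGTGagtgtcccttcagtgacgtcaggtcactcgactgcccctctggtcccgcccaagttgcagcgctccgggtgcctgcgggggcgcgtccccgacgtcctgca
The neighbours *Cldn3* and *Cldn4* both hold the E-box within the transcribed bases after the start, and *Cldn4* and the downstream start of *Cldn7* hold 2 matches each. *Cldn7* has 2 RefSeq starts, and the region of the other one, chr11:69964529-69964828, which is the start of the gene in the count table, holds no match to any motif searched. Of the 9 members 8 were matched in RefSeq, with 13 start regions in all, and *Cdh1* was not matched. The E-box was in 6 of the 13 regions, belonging to *Cldn3*, *Cldn4*, *Cldn7*, *F11r* and *Ocln*, beside 20.2% of all 32851 mouse start regions of this length, and overlapping regions of *Ocln* share a match. Other motifs were searched on both strands in the same way. The SMAD motif GGCGCC was in 1 of the 13 regions (*F11r*; 11.9% of all), the NKX2-1 motif CTCAAG in 2 (*F11r* and *Ocln*; 15.9% of all) and the GRHL motif AACNNGTT in 0 (4.2% of all). These matches describe letters only. *Cldn18* has 2 RefSeq starts, neither with a match, and counts per gene cannot tell transcripts of different starts apart.

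Libraries held from 21554249 to 28440227 counts. A gene with no read in a library could still have been present at up to 3 counts, or 0.105 to 0.139 CPM (counts scaled to a common library size with TMM factors). *Bmpr1a* itself differed by a log2 fold change of -0.015 ± 0.15 (SE; adjusted p = 0.983), and *Id1*, a classical target of BMP signalling, rose by 3.61 ± 0.42 (adjusted p = 0.0172). Control replicate 1 and caBmpr1a replicate 3 had reads on 4 Y-linked genes, with summed levels of 176 and 146 CPM, and the other 4 libraries had none. These libraries also stood apart on the first principal component, which held 49.9% of the variance, so results are also given for the 4 libraries without such reads. The 8 AT2 markers summed to 112500 to 127200 CPM in control and 97510 to 107900 CPM in caBmpr1a libraries, whose cells thus carried the markers of their label. In bulk RNA, fewer cells of a type and less RNA per cell cannot be told apart.

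Levels of the 9 genes spanned a wide range. Scaled for gene length (RPKM, the CPM divided by the gene's length in kilobases), *Cldn3* was the most abundant, at 493 ± 57.2 in control and 548 ± 89.97 in caBmpr1a cells (SD, n = 3 libraries each, as for all values that follow). *Cldn18* came next, at 310 ± 18.6 and 392 ± 37.7 RPKM, followed by *Cdh1* at 194 ± 13.5 and 192 ± 2.43 RPKM. *Cldn3* exceeded *Cldn18* in all 6 libraries, by 1.23 to 1.78 times, and *Cldn18* exceeded *Cdh1* in all 6, by 1.47 to 2.21 times.

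The other 6 members were lower. *Cldn7* (72.4 ± 6.95 and 66.7 ± 9.03 RPKM) and *F11r* (65.8 ± 9.99 and 68.2 ± 6.54 RPKM) could not be ordered, since *Cldn7* was the higher in 4 of 6 libraries only. *Tjp1* reached 33.7 ± 6.42 and 34.0 ± 1.54 RPKM. *Ocln* reached 14.3 ± 0.87 and 12.8 ± 1.31 RPKM. *Cldn12* was measured at 11.2 ± 1.51 and 8.91 ± 1.93 RPKM, below *Ocln* in every library by 1.13 to 1.69 times. *Cldn4* was the least abundant, at 1.19 ± 0.35 RPKM in control and 3.61 ± 3.31 RPKM in caBmpr1a cells, and in 1 library (caBmpr1a replicate 3) it was above *Cldn12*.

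**Figure D1:**
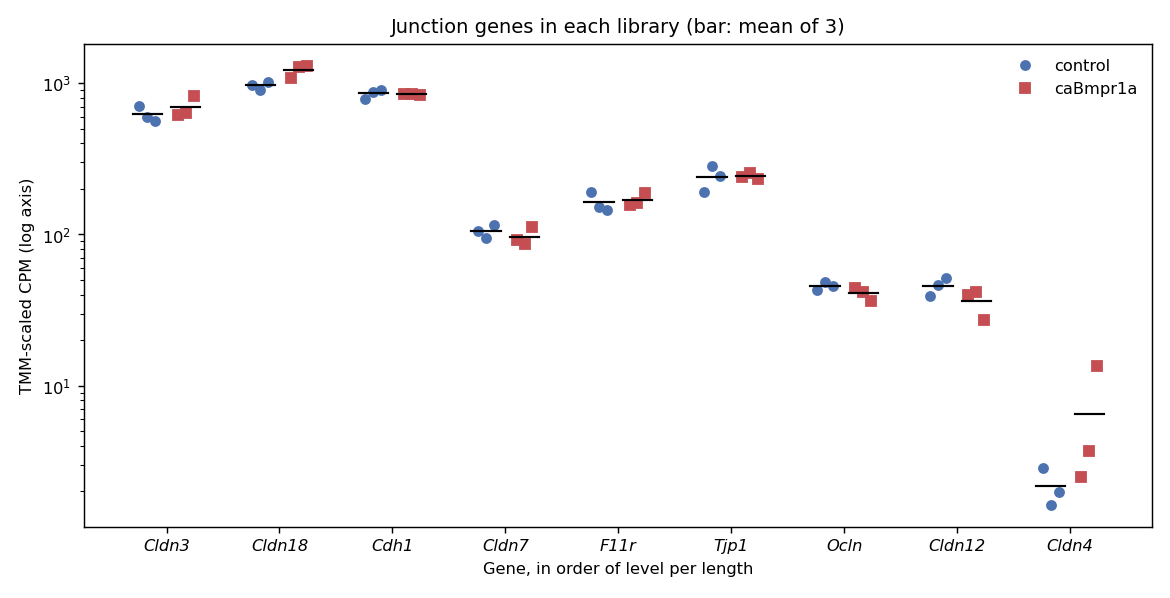
Level of each junction gene in each library, in CPM on a log axis after TMM scaling (circles control, squares caBmpr1a, bars the mean of 3), with genes ordered by level per length. The groups overlap for every gene except *Cldn18*, and *Cldn4* in caBmpr1a replicate 3, at 13.4 CPM, lies far above its other 5 values.

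The comparison of caBmpr1a with control cells asked whether an active BMP receptor changed these genes. Tested in edgeR (quasi-likelihood, p adjusted by Benjamini-Hochberg over the 16723 genes tested), 0 of the 9 members were called higher and 0 lower at an adjusted p under 0.05. DESeq2 and limma-voom also called 0. Over all genes tested, 0.239% were called higher and 0.0120% lower. At an unadjusted p under 0.05, *Cldn4* and *Cldn18* were higher and 0 members were lower, beside 4.62% and 5.05% of all genes. All 3 caBmpr1a values lay above all control values for 1 member, *Cldn18*, and below for 0, beside 7.0% and 10.1% of all genes. The log2 fold change was above 0 for 5 members and below 0 for 4, with a median of 0.012 beside -0.0096 over all genes tested.

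*Cldn18*, whose protein tightens the alveolar barrier, was the member whose groups did not overlap. It was measured at 974, 907 and 1023 CPM in control replicates 1 to 3, and at 1087, 1277 and 1302 CPM in the caBmpr1a replicates. The lowest caBmpr1a value thus lay just above the highest control value. The means were 968 ± 58.1 and 1222 ± 118 CPM, a ratio of 1.26. The log2 fold change of 0.34 (95% interval 0.018 to 0.66) had an adjusted p of 0.493 in the edgeR test, and this p ran from 0.168 to 0.831 over 16 other settings. In the 4 libraries without Y-linked reads the log2 fold change was 0.33.

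*Cldn3*, a claudin of the AT2 barrier, was measured at 703, 599 and 565 CPM in control and at 618, 636 and 823 CPM in caBmpr1a libraries. The groups overlapped, and the highest values of both were those of the libraries with Y-linked reads. Its log2 fold change was 0.15 (95% interval -0.22 to 0.53, edgeR adjusted p = 0.788), and it was 0.051 without caBmpr1a replicate 3.

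*Cldn7*, which occurs along the lateral membrane as well as at the tight junction, was measured at 105, 95.3 and 116 CPM in control and at 92.5, 86.4 and 112 CPM in caBmpr1a libraries. The groups overlapped widely, and its log2 fold change was -0.12 (95% interval -0.43 to 0.19, edgeR adjusted p = 0.806). It was -0.032 without caBmpr1a replicate 2 and -0.20 without caBmpr1a replicate 3. *Cldn12*, an atypical claudin that lacks the usual tail for binding ZO proteins, was measured at 39.1, 46.0 and 51.4 CPM in control and at 39.8, 41.8 and 27.3 CPM in caBmpr1a libraries. Its lowest value was that of caBmpr1a replicate 3, and the others overlapped. The log2 fold change was -0.33 (95% interval -0.75 to 0.089, edgeR adjusted p = 0.608), and -0.12 without that library.

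*Cldn4* had the largest log2 fold change of the 9 and also the largest spread. Counts were 64, 38 and 52 in control and 54, 96 and 412 in caBmpr1a libraries, or 2.87, 1.63 and 1.98 CPM against 2.48, 3.72 and 13.4 CPM. The value of caBmpr1a replicate 1 lay within the control range, replicate 2 lay just above it, and replicate 3 set the group mean. The means were 2.16 ± 0.64 and 6.54 ± 5.99 CPM, and the log2 fold change was 1.60 (95% interval 0.20 to 3.01, edgeR adjusted p = 0.461). Without caBmpr1a replicate 3 it was 0.57 (adjusted p = 0.876), and in the 4 libraries without Y-linked reads it was 0.82 (adjusted p = 0.411). Over all 16 other settings the adjusted p ran from 0.092 to 0.876. The coefficient of variation was 29.6% in control and 91.6% in caBmpr1a libraries.

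Occludin and JAM-A, the other membrane proteins of the tight junction among the 9, lay close together in the groups. *Ocln* was measured at 43.0, 48.6 and 45.6 CPM in control and at 44.4, 41.7 and 36.2 CPM in caBmpr1a libraries. *F11r* was measured at 192, 153 and 145 CPM in control and at 157, 163 and 188 CPM in caBmpr1a libraries. The groups overlapped for both genes. The log2 fold change of *Ocln* was -0.17 (95% interval -0.44 to 0.11, edgeR adjusted p = 0.68), and it was -0.051 without caBmpr1a replicate 3. That of *F11r* was 0.052 (95% interval -0.28 to 0.38, adjusted p = 0.924) and was -0.029 without control replicate 3.

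*Tjp1*, the scaffold, was measured at 192, 283 and 245 CPM in control and at 239, 254 and 233 CPM in caBmpr1a libraries. All 3 caBmpr1a values lay inside the control range. Its log2 fold change was 0.012 (95% interval -0.35 to 0.37, edgeR adjusted p = 0.988). *Cdh1*, the cadherin of the adherens junction, was measured at 789, 875 and 904 CPM in control and at 852, 855 and 835 CPM in caBmpr1a libraries. Again the caBmpr1a values lay inside the control range, and their coefficient of variation was 1.26%, beside 6.98% in control. The log2 fold change was -0.015 (95% interval -0.30 to 0.27, edgeR adjusted p = 0.977). The fold change of *Tjp1* fell on the other side of 0 without control replicate 1 or caBmpr1a replicate 2, and that of *Cdh1* without control replicate 3, caBmpr1a replicate 1 or caBmpr1a replicate 3.

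**Figure D2:**
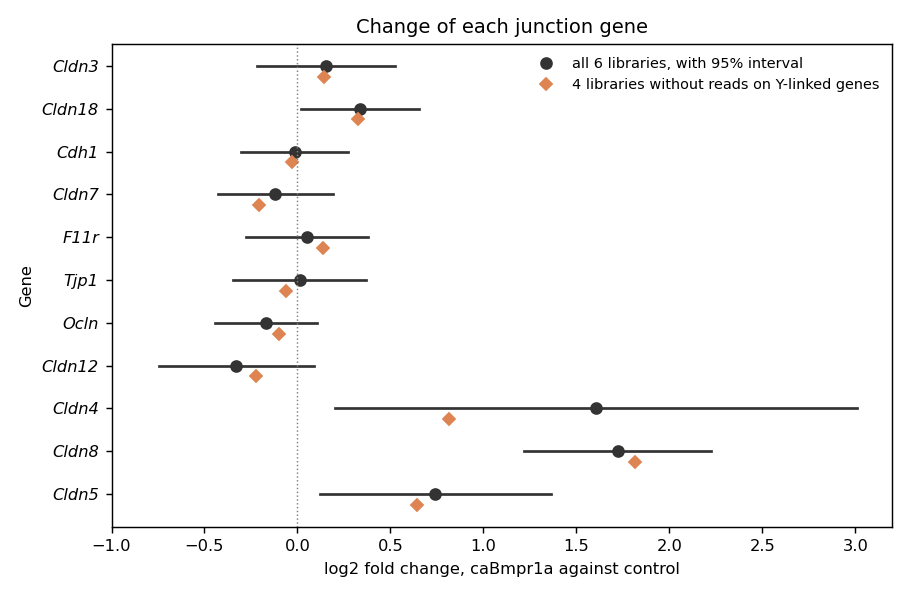
Log2 fold change of each of the 9 genes, and of *Cldn8* and *Cldn5*, in caBmpr1a against control cells, with its 95% interval over all 6 libraries (circles) and the value in the 4 libraries without Y-linked reads (diamonds). The intervals of 7 of the 11 genes cross 0, while that of *Cldn4* runs from 0.20 to 3.01 and that of *Cldn8* from 1.22 to 2.23.

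Summed over the 9 genes, the level was 3040, 3008 and 3096 CPM in control and 3133, 3358 and 3568 CPM in caBmpr1a libraries. *Cldn18*, *Cdh1* and *Cldn3* made up most of this sum. The library with the highest value was caBmpr1a replicate 3 for 3 members, control replicate 3 for 3, control replicate 2 for 2 and control replicate 1 for 1. Of all genes tested, 27.5% were highest in caBmpr1a replicate 3 and 18.5% in control replicate 3.

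The makeup of the claudins was compared per length, over the 23 claudins in the table. *Cldn3* held 53.3 ± 3.55% of the summed claudin level in control and 50.9 ± 2.93% in caBmpr1a cells, and *Cldn18* held 33.6 ± 2.43% and 36.5 ± 2.27%. These shares differed by -2.41 and 2.9 percentage points, with p-values of 0.5 and 0.3 in an exact permutation test (two-sided), whose smallest p with 3 against 3 is 0.1. The ratio of *Cldn18* to *Cldn3* was 0.56, 0.613 and 0.733 in control and 0.712, 0.813 and 0.64 in caBmpr1a libraries, and the groups overlapped.

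Of the 5 member claudins, *Cldn7* was the 1 whose share did not overlap between groups, and it was lower. Among the 21 claudins with a count in any library, shares lay lower without overlap for 14.3% and higher for 9.52%, and 1 of 5 does not set the members apart. *Cldn7* held 7.35%, 7.38% and 8.83% in control and 6.65%, 5.65% and 6.32% in caBmpr1a libraries, a difference of -1.65 percentage points (exact permutation p = 0.1, the smallest possible, unadjusted for the 23 shares compared). The share of *Cldn12* was 1.22 ± 0.22% and 0.85 ± 0.26% (exact permutation p = 0.2), and that of *Cldn4* 0.128 ± 0.031% and 0.316 ± 0.256% (exact permutation p = 0.2). A share falls when other claudins gain, and the summed claudin level was 981, 889 and 900.4 RPKM in control and 958, 1053 and 1214 RPKM in caBmpr1a libraries.

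**Figure D3:**
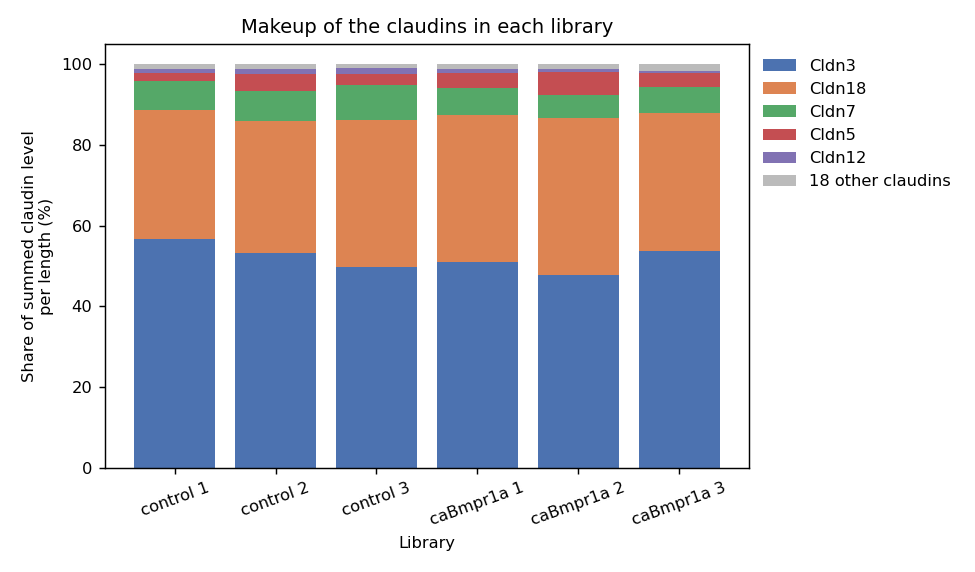
Share of each claudin in the summed claudin level per length, in percent, for each of the 6 libraries. *Cldn3* and *Cldn18* fill most of every bar, and the *Cldn7* band is thinner in the 3 caBmpr1a libraries (5.65% to 6.65%) than in the 3 control libraries (7.35% to 8.83%).

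Outside the 9 genes, 19 further claudins were listed, of which 18 were in the table and 11 were tested. *Cldn8*, known as a sealing claudin of the kidney and colon, was the 1 called, and it was higher. It was measured at 2.69, 2.32 and 2.59 CPM in control and at 7.56, 9.31 and 8.20 CPM in caBmpr1a libraries, from 54 to 68 and 165 to 252 counts. The groups were far apart and each was tight, with means of 2.53 ± 0.19 and 8.36 ± 0.88 CPM. *Cldn8* rose by a log2 fold change of 1.72 ± 0.22 (SE; edgeR adjusted p = 0.0234), and by 1.81 in the 4 libraries without Y-linked reads (adjusted p = 0.0315). Its fold change stayed between 1.65 and 1.85 over 16 other settings, 9 of which kept the call. Among the settings that lost it were those without control replicate 1 (adjusted p = 0.0858), control replicate 2 (0.152), control replicate 3 (0.115), caBmpr1a replicate 2 (0.191) or caBmpr1a replicate 3 (0.0507), and limma-voom (0.0571). Per length *Cldn8* was at 1.07 RPKM in control and 3.54 RPKM in caBmpr1a cells, close to *Cldn4* and far below *Cldn3*, and its share of the summed claudin level was 0.116 ± 0.0058% and 0.332 ± 0.044%.

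*Cldn5*, the claudin of endothelial cells, was measured at 26.9, 52.9 and 34.8 CPM in control and at 49.5, 83.4 and 58.4 CPM in caBmpr1a libraries, with a log2 fold change of 0.74 ± 0.27 (SE; edgeR adjusted p = 0.442). The sum of 8 endothelial markers was 238, 550 and 369 CPM in control and 466, 770 and 524 CPM in caBmpr1a libraries. Both were lowest in control replicate 1 and highest in caBmpr1a replicate 2. Of the 8 endothelial markers 8 had a log2 fold change above 0 (median 0.605, 0 called). At an unadjusted p under 0.05 (edgeR) 3 of them were higher and 0 lower, beside 4.62% and 5.05% of all genes tested. The part of endothelial cells in the result was not tested. *Cldn23* was measured at 2.65, 3.39 and 3.35 CPM in control and at 2.34, 2.02 and 1.95 CPM in caBmpr1a libraries, with no overlap (log2 fold change -0.57, adjusted p = 0.609). *Cldn2*, *Cldn10*, *Cldn11*, *Cldn15* and *Cldn19* were at 3.47 CPM or below on average in both groups, and their log2 fold changes ran from -0.48 (*Cldn10*) to 1.72 (*Cldn11*, adjusted p = 0.541). *Cldn16* and *Cldn17* had 0 counts in every library.

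*Cldn4* was the member with the largest fold change, and the genes with the profile most like it over the 6 libraries were *Sfn*, *Smpd3* and *Krt83*. Their root mean square differences from it, in log2 units after centring on the mean of each gene, were 0.104, 0.153 and 0.18. *Sfn*, which encodes the 14-3-3 sigma protein of epithelial cells, was measured at 40.7, 28.2 and 34.7 CPM in control and at 45.3, 58.0 and 181 CPM in caBmpr1a libraries. As for *Cldn4*, the value of caBmpr1a replicate 3 was far above the others, which follows from picking *Sfn* by its likeness to *Cldn4*.

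*Sfn* is also 1 of the 9 markers of transitional alveolar cells, the state between AT2 and AT1 cells. Their sum was 1384, 1041 and 1155 CPM in control and 1102, 1175 and 2168 CPM in caBmpr1a libraries. In each group the highest sum was that of the library with Y-linked reads. The sum includes *Sfn*, which was picked by its likeness to *Cldn4*, and 27.5% of all genes tested were highest in caBmpr1a replicate 3. Of these markers 0 were called and 2, *Krt7* and *Sfn*, were higher at an unadjusted p under 0.05 (edgeR), beside 4.62% of all genes tested. The log2 fold change was above 0 for 7 of the 9 and below 0 for 2, with a median of 0.382. *Krt8* was at 382, 302 and 373 CPM in control and at 260.2, 271 and 503 CPM in caBmpr1a libraries (log2 fold change -0.031, edgeR adjusted p = 0.977). *Krt7* was at 144, 131 and 110.2 CPM in control and at 156, 245 and 339 CPM in caBmpr1a libraries (log2 fold change 0.94, adjusted p = 0.299). The part of such cells in the level of *Cldn4* was not tested.

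**Figure D4:**
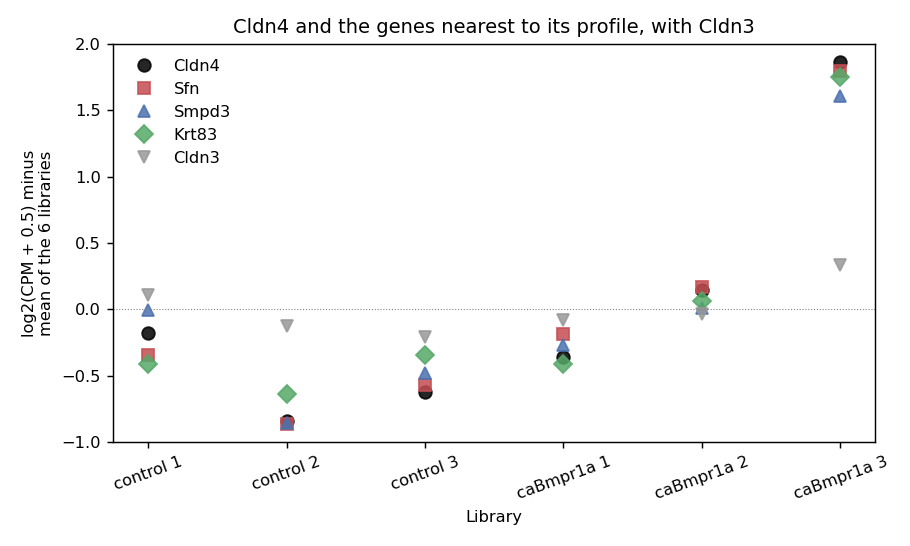
Log2(CPM + 0.5) of *Cldn4*, of the 3 genes nearest to its profile and of *Cldn3*, each minus its mean over the 6 libraries. *Cldn4*, *Sfn*, *Smpd3* and *Krt83* lie together, since the 3 genes beside *Cldn4* were picked by profile. They are highest in caBmpr1a replicate 3, where *Cldn4* and *Sfn* reach 13.4 and 181 CPM.

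Other junction genes were taken by list. Beside the counts below, 4.62% of all genes tested were higher and 5.05% lower at an unadjusted p under 0.05 (edgeR). All caBmpr1a values lay above all control values for 7.0% of genes tested, and below for 10.1%. Of 11 further membrane proteins of the tight junction, all tested, 0 were called by edgeR, 0 were higher and 1 was lower at an unadjusted p under 0.05, and the median log2 fold change was -0.063. That 1 gene, *Igsf5*, which encodes JAM4, was at 85.8, 83.0 and 83.9 CPM in control and at 70.4, 63.4 and 67.2 CPM in caBmpr1a libraries (log2 fold change -0.33, adjusted p = 0.355). For *Cxadr*, the receptor shared by coxsackievirus and adenovirus, the log2 fold change was -0.34 (adjusted p = 0.6). It was 0.50 for *Jam2* (0.532) and 0.99 for *Ildr2* (0.54), both without overlap of the groups. Of the 11 genes, 2 lay higher and 1 lower without overlap.

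Of 23 scaffold and polarity proteins, all tested, 0 were called, 1 was higher and 1 lower at an unadjusted p under 0.05, and 16 had a log2 fold change below 0 (median -0.076). *Magi1*, a scaffold of tight and adherens junctions, was measured at 62.6, 73.3 and 73.6 CPM in control and at 94.2, 124 and 136 CPM in caBmpr1a libraries. The groups did not overlap, and the log2 fold change was 0.75 ± 0.15 (SE; edgeR adjusted p = 0.143). *Ybx3*, the 1 lower gene at the unadjusted threshold, was at 106, 95.9 and 95.5 CPM in control and at 84.1, 80.5 and 79.2 CPM in caBmpr1a libraries. Its log2 fold change was -0.29 (edgeR adjusted p = 0.429). Of the 23 genes, 1 lay higher and 1 lower without overlap. On the log2 scale the difference was 0.52 for *Mpdz*, a multi-PDZ scaffold (adjusted p = 0.587), and -0.36 for both *Amotl1* (0.677) and *Magi2* (0.601).

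Beside *Cdh1*, 14 adherens junction genes were tested, of which 0 were called, 0 were higher and 1 was lower at an unadjusted p under 0.05 (median log2 fold change 0.0061). *Pvrl1*, the older symbol of nectin 1, was measured at 229, 224 and 226 CPM in control and at 148, 136 and 102 CPM in caBmpr1a libraries. The groups were well apart, with a log2 fold change of -0.81 ± 0.15 (SE; edgeR adjusted p = 0.119). *Epcam*, which binds *Cldn7* protein in epithelia, was at 197 ± 25.4 and 170 ± 4.18 CPM (log2 fold change -0.22, adjusted p = 0.623). Its lowest control value, 175.2 CPM, lay just above its highest caBmpr1a value, 174.3 CPM. Of the 14 genes, 3 lay lower and 1 higher without overlap, beside 10.1% and 7.0% of all genes tested. The other cadherins, *Cdh2* (N-cadherin) and *Cdh3* (P-cadherin), differed by 0.51 (adjusted p = 0.835) and 0.44 (adjusted p = 0.751) on the log2 scale.

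Of 16 transcription and splicing factors known to act on junction genes, 14 were tested and 0 were called, with 1 higher and 1 lower at an unadjusted p under 0.05 (edgeR; median log2 fold change 0.155). *Grhl1*, of the grainyhead family that activates epithelial junction genes, was measured at 9.10, 4.89 and 7.04 CPM in control and at 15.9, 20.5 and 38.1 CPM in caBmpr1a libraries. All caBmpr1a values were above all control values, and the log2 fold change was 1.83 ± 0.35 (SE; adjusted p = 0.127). *Ehf*, an epithelial ETS factor, was measured at 142, 159 and 188 CPM in control and at 124, 117 and 112 CPM in caBmpr1a libraries, also without overlap (log2 fold change -0.47, adjusted p = 0.307). Of the 14 tested, 1 lay higher and 1 lower without overlap. For *Elf3* the log2 fold change was -0.37 (adjusted p = 0.643), and for *Zeb2*, a repressor of *Cdh1*, it was 0.53 (adjusted p = 0.598).

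**Figure D5:**
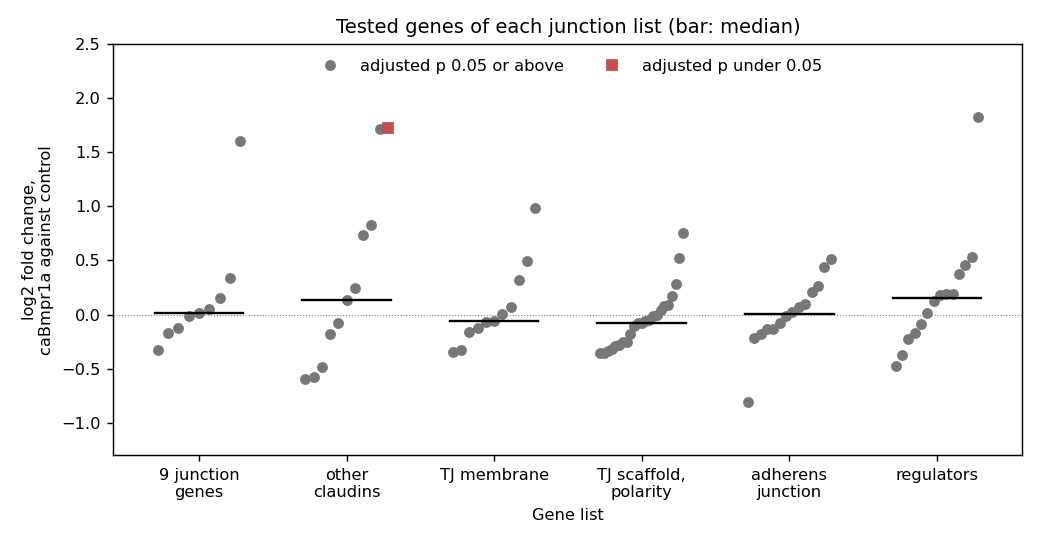
Log2 fold change of every tested gene of the 9 junction genes and of each further list, with the median as a bar. The medians lie between -0.076 and 0.155, and the only square, for an adjusted p under 0.05, is *Cldn8* at 1.72.

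Markers of other cells in the sort were summed beside these results. Airway markers summed to 723 to 916 CPM in control and 840 to 1220 CPM in caBmpr1a libraries (7 tested, 1 called higher, *Tppp3*). Of the 7, 4 had a log2 fold change above 0 and 3 below (median 0.168). *Cyp2f2* was lower, at 193 and 133 CPM on average (log2 fold change -0.53, edgeR adjusted p = 0.19), and *Krt5* was at 0 in all libraries. Mesenchymal markers summed to 142 to 191 and 231 to 286 CPM (8 tested, 0 called, 8 above 0, median log2 fold change 0.5). Leukocyte markers summed to 55.01 to 62.8 and 49.7 to 109 CPM (8 tested, 0 called, median 0.642). AT1 markers summed to 3053 to 4028 and 3308 to 3712 CPM (10 tested, 0 called), with *Ager* at 1556 and 1536 CPM on average. Of the AT1 markers 7 had a log2 fold change above 0 and 3 below (median 0.185). At an unadjusted p under 0.05 (edgeR), 3 mesenchymal, 1 airway, 1 leukocyte and 1 AT1 marker were higher, and 1 airway and 1 AT1 marker were lower. Over all genes tested the shares were 4.62% and 5.05%. Of the 8 AT2 markers 0 were called, and 0 were higher and 3 lower at an unadjusted p under 0.05 (edgeR). Their log2 fold change was above 0 for 1 and below 0 for 7, with a median of -0.301. Their summed level was lower in every caBmpr1a library than in any control library. The part of such cells in the levels of the junction genes was not tested.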

How the data were processed

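The authors trimmed reads, dropped those under 24 bases, aligned them to mm10 with HISAT2, removed duplicates and deposited raw counts per gene, with no normalization (featureCounts 1.5.3 per the file headers, exons, unstranded). Reads that fell on more than 1 gene were not counted. The methods speak of fragments, but the header sets no read-pair option and even numbers made up 56.9% to 60.8% of low counts. If mates were counted separately, the precision of low counts is overstated.

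Groups came from the sample titles. Counts of all 24421 genes were filtered with filterByExpr (minimum count 10), TMM-scaled and tested with edgeR 4.0.16 in R 4.3.3 (quasi-likelihood, Benjamini-Hochberg over 16723 genes, called at an adjusted p under 0.05). The study's methods name DESeq2 (1.42.0 here), run as an alternative with limma-voom (limma 3.58.1). CPM use TMM-scaled library sizes, and RPKM the deposited gene lengths. Intervals use the moderated degrees of freedom. All pairs of replicates differed by more than sampling noise.

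The members, lists and tests were chosen with earlier results of these data known. Named genes were all members, claudins of at least 1 CPM in either group, the 2 highest and 2 lowest fold changes of each other junction list, called genes, and the 3 profiles nearest to the member with the largest fold change. *Id1*, *Bmpr1a*, *Cyp2f2*, *Krt7*, *Krt8*, *Ybx3*, *Ager* and the claudins at 0 were added after their values were seen.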

Additional observations from a re-analysis of the deposited data

How the results depend on the processing

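Of the 9 members, 0 were called higher and 0 lower under each of 16 alternatives, 6 of which left out 1 library. Over all genes the counts moved more. Genes called higher numbered 40, and 62 with no filter, 198 with DESeq2, 213 with a covariate for Y-linked reads, 73 in the 4 libraries without them, and 6 to 59 with 1 library left out. Genes called lower numbered 2, and 1 with upper-quartile scaling, library size only, limma-voom or age as a covariate, 5 with no filter or the replicate block, 88 with DESeq2, 210 with the Y-linked covariate, 40 in the 4 libraries and 0 to 4 with 1 library left out. Deviations from the group mean correlated at -0.32, 0.25 and -0.54 between the libraries of replicate numbers 1 to 3. With 3 libraries a group, these values cannot settle whether the numbers pair libraries. Under the block *Cldn8* had an adjusted p of 0.125 in edgeR.

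The median of all genes was -0.0096, and 0.064 with upper-quartile scaling, 0.12 with library size only and 0.058 with DESeq2. The DESeq2 median covered 22272 genes, of which 13672 had an adjusted p. The members' median was 0.0869, 0.143 and 0.0226 under the same settings, and -0.0765 to 0.0433 with 1 library left out. Small differences changed sign: *Cdh1* was 0.010 with DESeq2 size factors, 0.059 with upper-quartile scaling, 0.12 with library size only and -0.076 to 0.032 with 1 library left out. With library size only *Cldn7* was 0.014, and it was -0.20 to -0.032 with 1 library left out. *Tjp1* was -0.0055 with no filter, -0.063 in the 4 libraries and -0.13 to 0.14 with 1 library left out, and *F11r* was -0.029 to 0.18 with 1 library left out. Signs of *Cldn3*, *Cldn4*, *Cldn12*, *Cldn18* and *Ocln* held in all 16, and *Ocln* was -0.22 to -0.051 with 1 library left out. Shares of *Cldn3*, *Cldn18* and *Cldn7* differed by -4.21 to -0.658, 1.73 to 4.28 and -1.9 to -1.16 percentage points with 1 library left out. Depth limited *Cldn4* most, with 38 to 412 counts a library. The causes of these shifts were not tested.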
